A study of Homo sapiens with 25 samples.

Results

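RNA bound to wild-type IGF2BP1 was compared between arsenite-treated and control cells by RNA immunoprecipitation sequencing (RIP-seq), in which a protein is pulled out of a lysate and the RNA that comes down with it is sequenced. The members were the 3 libraries labelled mCherry-IGF2BP1 WT, arsenite, RIP and the 3 libraries labelled mCherry-IGF2BP1 WT, control, RIP, chosen by genotype and treatment, 6 of the 25 RIP libraries of the series. Within them, 8734 of the 20044 protein-coding genes in the files had enough counts to be tested. All 6 libraries came from HCT116 cells, a human colorectal carcinoma line, which carried mCherry-IGF2BP1 WT together with Tet-OsTIR1-PURO and in which both relatives of the tagged protein were knocked out (IGF2BP2 KO, IGF2BP3 KO). The cells stably expressed the fusion protein. They were a population sorted in a narrow gate of mCherry fluorescence, not a single clone. The 3 dishes of each treatment were plated and grown independently. Arsenite cells received 500 µM sodium arsenite for 2 h before collection and control cells received PBS. The other libraries came from cells with the S181E, Y396E or RQ mutant of the fusion protein, in both treatments, and from parental HCT116 cells that lack it, with 1 library for each treatment. The paper calls the parental cells nonengineered, so they may also differ from the other cells in the IGF2BP2 and IGF2BP3 knockouts.

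IGF2BP1 is an oncofetal RNA-binding protein with RRM and KH domains that binds mRNAs, many of them in the 3′ untranslated region (3′ UTR). It is known for protecting mRNAs such as MYC mRNA from decay and for regulating the translation of mRNAs such as ACTB mRNA. It enters stress granules, cytoplasmic condensates of mRNA and protein that form when translation initiation stops. Sodium arsenite is an oxidative and proteotoxic stressor. It leads to phosphorylation of eIF2α and a block of translation initiation, and it activates transcription through HSF1 (heat shock genes), NRF2 (antioxidant genes), ATF4 (the integrated stress response) and the mitogen-activated kinases that switch on immediate early genes. A RIP level combines how much of an RNA a cell holds with how much of that RNA is bound. Total RNA was not analysed here, so that a change in abundance and a change in binding cannot be told apart in any value below.

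The control libraries held 22246381 to 37942065 counts and the arsenite libraries 29414260 to 46914852. Protein-coding genes took 62.1% ± 1.70 (SD, n = 3) of the counts in control and 71.4% ± 2.60 with arsenite, and mitochondrial ribosomal RNA took 36.3% ± 1.70 and 27.4% ± 2.59. Both groups were fully separated in both measures (exact permutation test, two-sided, p = 0.1, the smallest that 3 against 3 libraries allow). Across the 8734 genes, log2 levels correlated at 0.945 to 0.968 between control libraries, at 0.990 to 0.993 between arsenite libraries and at 0.817 to 0.847 between treatments, as a description across genes, which are not independent replicates. The median coefficient of variation over genes was 16.6% in control and 7.26% with arsenite. Of 12 colon epithelial markers, 8 exceeded 10 CPM (read counts scaled to a common library size), among them EPCAM, KRT8, KRT18, KRT19 and CDH1, while none of 8 fibroblast, 7 immune and 4 endothelial markers did. The parental control library was shallow, with 1238013 counts and 3572 of the tested genes at 0, against 18942497 in the parental arsenite library, which therefore served as the measure of background.

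IGF2BP1 itself had 70.1, 68.1 and 60.9 CPM in the control libraries and 40.6, 42.4 and 37.2 with arsenite, which fell by 0.74 ± 0.12 on the log2 scale (SE; edgeR adjusted p = 8.2e-06). It was listed at 0 in both parental libraries, where 3 counts, the limit that a count of 0 allows, correspond to 2.02 CPM (control) and 0.130 CPM (arsenite). IGF2BP2 had 213, 173 and 247 CPM in control and 184, 174 and 190.3 with arsenite, and IGF2BP3 had 227, 247 and 261 and 162, 152 and 147 (log2 change -0.68 ± 0.08, adjusted p = 6.9e-08). These counts run over all exons of a gene, and the extent of the deletions is not given in the sources used here, so the levels of the 2 knocked-out genes check nothing about the genotype.

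Sequences are shown first for the genes on which the account of stress transcription and of ribosomal protein mRNAs turns. They were read from RefSeq promoter windows (GRCh38.p14), which hold 250 bases before and 50 bases after an annotated start, and each line gives the 250 bases before the start, 5′ to 3′ on the gene's strand. In the HSPA1B promoter at chr6:31827488-31827737 (+) and the HSP90AB1 promoter at chr6:44247693-44247942 (+), capitals mark the core of the heat shock element, GAANNTTC or TTCNNGAA, to which HSF1 binds. In the EGR1 promoter at chr5:138465229-138465478 (+) and the EGR2 promoter at chr10:62816367-62816616 (-), capitals mark CArG boxes, to which serum response factor binds. In the DUSP1 promoter at chr5:172771196-172771445 (-), capitals mark a cyclic AMP response element, TGACGTCA.
HSPA1B: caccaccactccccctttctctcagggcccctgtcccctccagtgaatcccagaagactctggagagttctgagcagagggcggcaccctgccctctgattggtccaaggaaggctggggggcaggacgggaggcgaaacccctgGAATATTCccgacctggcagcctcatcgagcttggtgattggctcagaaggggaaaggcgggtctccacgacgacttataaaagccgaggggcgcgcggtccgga
HSP90AB1: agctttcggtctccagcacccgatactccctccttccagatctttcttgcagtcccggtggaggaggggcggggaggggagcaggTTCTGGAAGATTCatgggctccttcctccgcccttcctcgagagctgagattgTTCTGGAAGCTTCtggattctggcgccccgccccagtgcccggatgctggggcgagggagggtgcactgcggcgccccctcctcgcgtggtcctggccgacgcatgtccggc
EGR1: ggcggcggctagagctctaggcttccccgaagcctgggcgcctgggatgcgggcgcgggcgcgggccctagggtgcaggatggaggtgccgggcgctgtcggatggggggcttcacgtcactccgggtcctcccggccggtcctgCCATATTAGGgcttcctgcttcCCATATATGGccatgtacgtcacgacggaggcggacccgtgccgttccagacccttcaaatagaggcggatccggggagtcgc
EGR2: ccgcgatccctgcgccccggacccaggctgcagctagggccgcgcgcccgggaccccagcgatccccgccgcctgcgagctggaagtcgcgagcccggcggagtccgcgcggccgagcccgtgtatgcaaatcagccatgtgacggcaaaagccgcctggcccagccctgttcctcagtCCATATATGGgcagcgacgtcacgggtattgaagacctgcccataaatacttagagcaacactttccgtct
DUSP1: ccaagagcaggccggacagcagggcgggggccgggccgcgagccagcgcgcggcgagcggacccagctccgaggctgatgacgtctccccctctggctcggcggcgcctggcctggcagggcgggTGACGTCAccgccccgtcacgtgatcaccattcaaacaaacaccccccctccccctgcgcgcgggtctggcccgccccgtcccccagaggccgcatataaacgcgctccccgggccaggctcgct

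The heat shock element core began at -105 in HSPA1B, counted from the annotated start, and 4 overlapping or neighbouring copies began at -165, -160, -112 and -107 in HSP90AB1. CArG boxes began at -105 and -83 in EGR1 and at -71 in EGR2, and the response element in DUSP1 at -125. Each of these patterns reads the same on both strands, so that a match counts once. A heat shock element core was present in 13.5% of the 35116 windows of 300 bases, in 13.1% of the 7194 tested genes with a window and in 15 of the 25 heat shock genes with a window. A CArG box was present in 1.29% of all windows, in 1.60% of tested genes with a window and in 3 of 30 immediate early genes (EGR1, EGR2 and SRF), and the cyclic AMP response element in 1.85%, 4.28% and 6 of 30. Among all genes at least 2-fold higher with arsenite that had a window, 13.4% held a heat shock element core, 1.23% a CArG box and 4.17% a cyclic AMP response element, each close to the share among tested genes. A match is a description of letters and shows no binding.

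Messenger RNAs of ribosomal proteins and elongation factors are known for a terminal oligopyrimidine motif at their 5′ end, a C followed by pyrimidines, through which their translation is switched off under stress. The first 20 transcript bases of 7 such mRNAs from the same windows are given below because all but 3 of the tested ribosomal protein genes fell, with the starting run of pyrimidines in capitals. They lie at chr12:56116633-56116652 (+) for RPL41, chr3:39406720-39406739 (+) for RPSA, chr15:69452818-69452837 (+) for RPLP1, chr12:120201092-120201111 (-) for RPLP0, chr13:45341164-45341183 (-) for TPT1, chr19:3985444-3985463 (-) for EEF2 and chr1:153990762-153990781 (+) for RPS27.
RPL41: CTCTCggccttagcgccatt
RPSA: CTTTTCCgtgctacctgcag
RPLP1: CCCCTTTCCTCagctgccgc
RPLP0: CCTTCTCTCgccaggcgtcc
TPT1: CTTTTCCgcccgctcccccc
EEF2: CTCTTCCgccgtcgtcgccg
RPS27: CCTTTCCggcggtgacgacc

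The run measured 5 bases in RPL41, 11 in RPLP1, 9 in RPLP0 and 7 in the other 4. A C followed by at least 4 pyrimidines, within 5 bases of the annotated start and on the transcript strand, was found in 52 of 60 ribosomal protein genes with a window and in 9 of 11 genes of poly(A)-binding and elongation factors. It was also found in 21.1% of all windows and 30.5% of tested genes with a window, and in 33.7% of the genes at least 2-fold lower and 27.7% of those at least 2-fold higher.

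Arsenite changed the level of 67.3% of the tested genes in the IGF2BP1 pull-down, with calls made where the adjusted p was under 0.05 and the level changed by more than 20%. Of the 5875 genes called, 3095 (35.4% of those tested) were higher and 2780 (31.8%) lower. The 3 arsenite libraries did not overlap the 3 control libraries in 5525 of them. A change of at least 2-fold was seen for 1276 genes (14.6%) upward and 942 (10.8%) downward, and of at least 4-fold for 97 and 44. In bulk libraries, fewer cells that hold an RNA and less of it per cell cannot be told apart. The log2 changes ran from -3.69 for ANKRD33B to 6.65 for FOS, with a median over all tested genes of 0.03. How the calls divide depends on the scaling. Another scaling took its factors from the 1532 genes that did not exceed the parental level (parental-level factors). Their mean mCherry level was at or below the parental library in each treatment, so the choice rests in part on the shallow parental control library. With these factors the median moved to -0.26 and 2073 genes were higher and 3819 lower. Thus 35.2% of calls were upward in place of 52.7%. With DESeq2 size factors this share was 51.1% and with total counts alone 55.0%. None of the genes called was called in the opposite direction in any of these, but with parental-level factors the log2 change of 41 called genes changed sign.

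**Figure D1:**
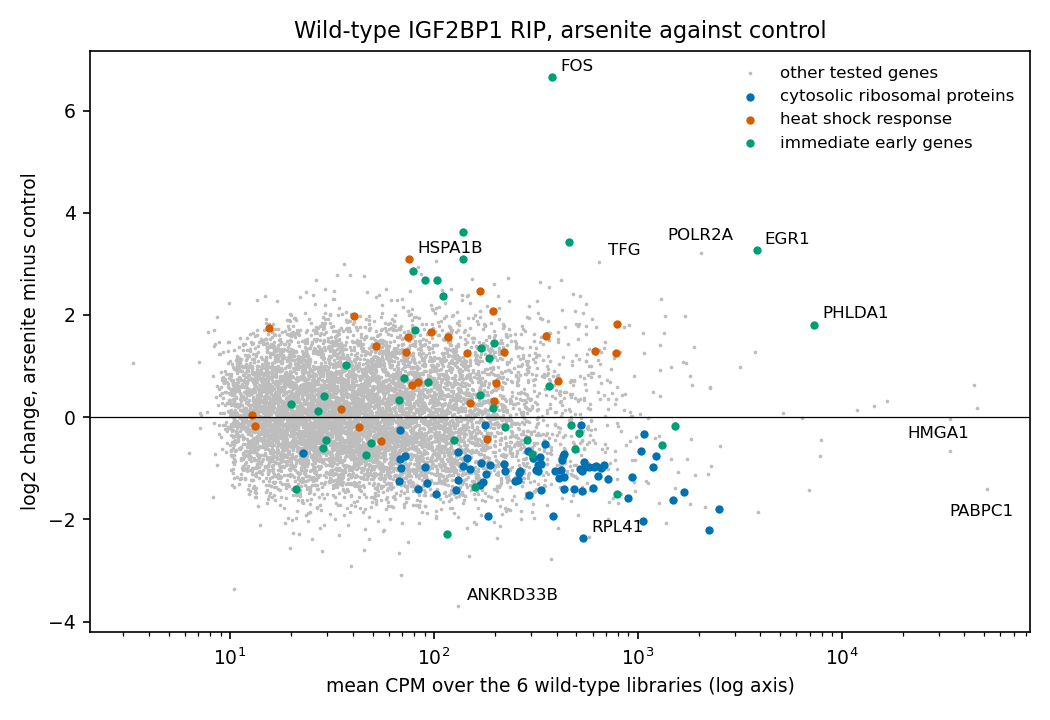
Mean level over the 6 wild-type libraries (CPM, log axis) against the log2 change with arsenite for the 8734 tested genes, with ribosomal protein, heat shock and immediate early genes in color and 10 genes named. FOS lies highest at 6.65 and ANKRD33B lowest at -3.69, the ribosomal protein genes lie below 0, and PABPC1 and HMGA1 lie at the right edge.

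The immediate early genes held the largest increases. Of 42 listed genes 41 were tested, of which 21 rose, 14 fell and 6 were not called, against 35.4% and 31.8% over all tested genes, and their median log2 change was 0.33. FOS, a subunit of the AP-1 transcription factor, had 6.11, 12.7 and 3.68 CPM in the control libraries and 709.9, 839.8 and 718 with arsenite, a log2 change of 6.65 ± 0.35 (adjusted p = 2.4e-13). FOSB, its close relative, rose from 91.5, 52.4 and 88.5 to 786, 827 and 923 CPM (3.43 ± 0.22). JUN, the other partner in AP-1, rose from 29.7, 23.9 and 33.1 to 214, 244 and 286 CPM (3.09 ± 0.14). In all 3 genes every arsenite library was above every control library by several-fold. They are among the 12 most increased genes, for which separate groups were a condition, so this separation adds no support. The zinc finger factors of the EGR family moved the same way. EGR1 rose from 712, 635 and 797 to 6801, 6728 and 7286 CPM (3.27 ± 0.18, adjusted p = 7.1e-13), EGR2 from 24.8, 17.3 and 19.99 to 239.6, 260.4 and 275 (3.62 ± 0.21), and EGR3 from 39.95, 18.1 and 24.1 to 176, 187 and 178 (2.69 ± 0.23). DUSP1, a phosphatase that switches off mitogen-activated kinases, rose from 22.8, 18.6 and 15.2 to 132, 151 and 137 CPM (2.87 ± 0.16).

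Immediate early genes differed in how their level compared with the background. FOS had 1271 CPM in the parental arsenite library, FOSB 1971 and JUN 729.8, all above the levels in the 3 wild-type arsenite libraries. EGR1, in contrast, had 1817 CPM there, and PHLDA1, an immediate early regulator of cell survival, 412. PHLDA1 had 3248, 3087 and 3310.3 CPM in the wild-type control libraries and 10732, 11526 and 11817 with arsenite (1.81 ± 0.11, adjusted p = 3.7e-12), so its wild-type arsenite level was 27.6 times the parental one, and that of EGR1 was 3.82 times. Of the 41 genes tested, 22 were below the parental arsenite library and 6 at least 4-fold above it. Among the members that fell, FOSL2, another AP-1 subunit, had 186, 171 and 219 CPM in control and 37.2, 40.7 and 40.8 with arsenite (-2.29 ± 0.14), and IER3, a regulator of apoptosis, had 1168, 1258 and 1076 and 409.9, 417 and 410.1 (-1.51 ± 0.10). DUSP8, a phosphatase of stress-activated kinases, fell by 1.40 on the log2 scale. The groups did not overlap for these 3 genes either.

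**Figure D2:**
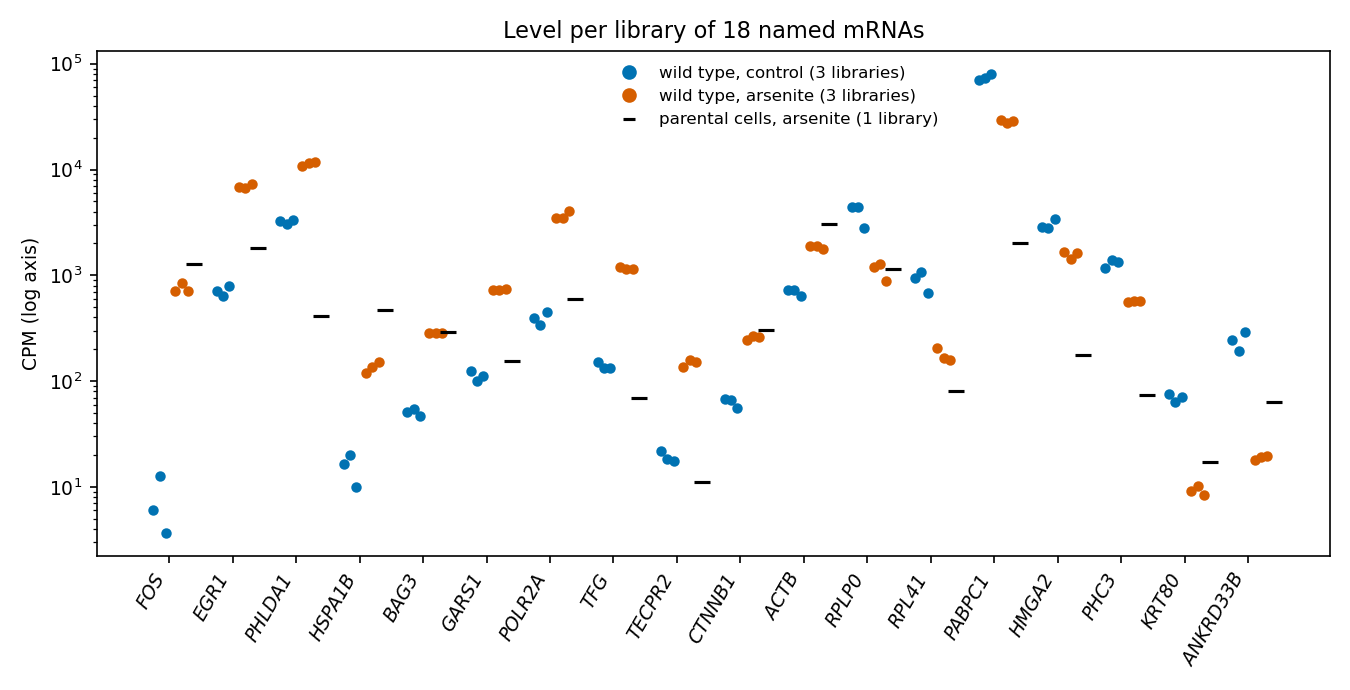
CPM (log axis) of 18 named mRNAs in each wild-type control library (blue points), each wild-type arsenite library (orange points) and the parental arsenite library (black bar). Control and arsenite points are separated for every gene shown, which was a condition for naming several of them. The black bar lies above the orange points for FOS, HSPA1B, ACTB and CTNNB1, among others. It lies far below the orange points for PHLDA1, TFG, TECPR2, PABPC1 and HMGA2.

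Heat shock genes rose together. Of 32 listed 28 were tested, of which 21 rose, 2 fell and 5 were not called. Their median log2 change was 1.27, and 16 rose at least 2-fold. Among all tested genes 35.4% rose, 31.8% fell and 14.6% rose at least 2-fold. HSPA1B, an inducible HSP70 chaperone, had 16.6, 20.2 and 9.99 CPM in control and 118, 136 and 151 with arsenite (3.10 ± 0.21, adjusted p = 1.1e-11). Its neighbor HSPA1A is a near-identical copy, and reads that fit both were not counted, so both levels are too low. BAG3, a co-chaperone of HSP70, rose from 51, 54.8 and 47 to 288, 283 and 285 CPM (2.48 ± 0.11), and HSPH1, its nucleotide exchange factor, from 72.1, 84.7 and 66.8 to 305, 316 and 330.2 (2.08 ± 0.09). HSP90AB1, a cytosolic HSP90, rose from 353, 377 and 313 to 1190.4, 1211 and 1314 CPM (1.82 ± 0.11), and DNAJB1, an HSP40, from 157, 174 and 199.5 to 506, 547 and 557 (1.59 ± 0.09). HSPD1, the mitochondrial chaperonin, rose by 1.26 ± 0.13, whereas HSPE1, its partner, fell from 54.1, 80.8 and 57.4 to 45.1, 46.5 and 48 CPM (-0.47 ± 0.12). HSF1, the factor that drives these genes, had 228, 212 and 182 CPM in control and 157, 158 and 153 with arsenite (-0.42 ± 0.11).

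Most heat shock mRNAs had no higher CPM in the wild-type arsenite libraries than in the parental arsenite library. CPM is relative to each library and gives no amount of RNA recovered, so an absence of binding cannot be read from it. In 24 of the 28 genes the mean wild-type arsenite level was below the parental arsenite library, and in none was it 4-fold above. The parental arsenite level was 472 CPM for HSPA1B, 513 for HSPH1 and 3468 for HSP90AB1. In the 2 parental libraries, 1 for each treatment and without a replicate check, HSPA1B went from 51.3 to 472 CPM and BAG3 from 54 to 294. Over all tested genes, 43.0% were below the parental arsenite library and 8.79% at least 4-fold above it.

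ATF4 targets of the integrated stress response, which supply amino acids and aminoacyl-tRNA, rose in most cases. Of 36 listed 28 were tested, with a median of 0.93. Of these 19 rose (67.9%, against 35.4% of all tested genes), 4 fell (14.3%, against 31.8%) and 5 were not called. GARS1, glycyl-tRNA synthetase, had 126, 100.4 and 111 CPM in control and 729, 724 and 743 with arsenite (2.69 ± 0.12, adjusted p = 2.7e-14), and the parental arsenite library held 157. EPRS1, glutamyl-prolyl-tRNA synthetase, rose from 54.7, 69.7 and 72.2 to 296, 269 and 326 CPM (2.17 ± 0.12), and DDIT4, an inhibitor of mTORC1, from 4.61, 8.54 and 8.77 to 30.2, 45.2 and 43.5 (2.45 ± 0.23). ATF4 mRNA itself fell from 243, 262 and 238 to 107, 114 and 124 CPM (-1.12 ± 0.12, adjusted p = 1.6e-08), and in the parental arsenite library it had 349.5. SLC7A1, a cationic amino acid transporter, fell from 447, 355 and 465 to 198, 213 and 245 CPM. SLC7A5, a transporter of large neutral amino acids, had 1001, 877 and 901 and 921, 986 and 958 CPM, and these groups overlapped.

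Genes of the unfolded protein response serve folding and degradation in the endoplasmic reticulum. Of 21 tested members 14 rose (66.7%, against 35.4% of all tested genes) and 1 fell (4.76%, against 31.8%). Their median was 0.56, and with parental-level factors 9 rose and 5 fell. HERPUD1, a component of the degradation machinery, had 23.5, 19.4 and 20.8 CPM in control and 159, 140.0 and 153 with arsenite (2.81 ± 0.19), and SYVN1, its ubiquitin ligase, had 32.1, 28.7 and 24.5 and 120.4, 120.0 and 122 (2.07 ± 0.15). XBP1, the transcription factor of the IRE1 branch, had 56.5, 67.6 and 40.9 CPM in control and 76.5, 80.7 and 66.6 with arsenite (0.43 ± 0.17, adjusted p = 0.0292), and its highest control library lay above its lowest arsenite library. This call was lost without control replicate 3 (0.26) and without arsenite replicate 1 (0.405) or 2 (0.37). DNAJC3, a co-chaperone, was the member that fell (-0.36 ± 0.12), a call lost when all biotypes were tested (-0.20) or a change above 20% was tested.

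NRF2 targets and metallothioneins moved in both directions, with 12 of 25 tested members higher (48.0%, against 35.4% of all tested genes), 9 lower (36.0%, against 31.8%) and 4 not called, and a median of 0.31, but 9 higher and 10 lower with parental-level factors. PGD and TALDO1, enzymes of the pentose phosphate pathway, rose. PGD went from 54.6, 63.1 and 45.8 to 142, 134 and 146 CPM (1.36 ± 0.11) and TALDO1 from 31, 40.5 and 17.2 to 72, 73.5 and 79 (1.32 ± 0.22). Both ferritin mRNAs fell, the light chain FTL from 6603, 6396 and 5259 to 1845, 1695 and 1545 CPM (-1.86 ± 0.16) and the heavy chain FTH1 from 9622, 10377 and 10263 to 4022, 3983 and 3385 (-1.42 ± 0.12). MAFG, a small partner of NRF2, fell from 236, 210.0 and 266 to 51.8, 50.2 and 58 CPM (-2.16 ± 0.13), and SLC30A1, a zinc exporter, fell by 1.99 on the log2 scale. HMOX1, heme oxygenase, had 8.60, 7.34 and 6.93 CPM in control and 19.2, 17.4 and 18.3 with arsenite (1.25 ± 0.24).

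Cytosolic ribosomal protein mRNAs fell as a group. Of 79 listed 75 were tested, and 72 fell, 42 of them at least 2-fold, against 31.8% and 10.8% of all tested genes. None rose, 3 were not called, and the log2 changes ran from -2.37 to -0.15 with a median of -1.04. Their summed level was 50925, 58362 and 40795 CPM in the control libraries and 22688, 22488 and 20534 CPM with arsenite, with no overlap. RPL41, a small protein of the large subunit, had 951, 1082 and 684 CPM in control and 204, 165 and 160.0 with arsenite (-2.37 ± 0.22, adjusted p = 2.1e-09). RPSA, of the small subunit, went from 3792, 4236 and 2969 to 851, 851 and 706 CPM (-2.20 ± 0.19). The stalk proteins followed, RPLP1 with 1859.9, 2033 and 1208 CPM in control and 451, 449 and 365 with arsenite (-2.02 ± 0.26), and RPLP0 with 4412, 4460.1 and 2832 and 1201, 1286 and 886 (-1.81 ± 0.25). Control replicate 3 was the lowest control library in all 4 genes, and each group remained separate. Ribosomal protein genes have many processed copies in the genome, and reads that map to several places were left out, so their levels are too low. In 65 of the 75 the wild-type arsenite level was below the parental arsenite library, and none was 4-fold above it.

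The translation machinery beyond the ribosome did not move as one. The 17 tested poly(A)-binding proteins and elongation factors had a median of -0.40. Of these 11 fell (64.7%, against 31.8% of all tested genes), 1 rose (5.88%, against 35.4%) and 5 were not called. PABPC1, the cytoplasmic poly(A)-binding protein, had 70826, 73331 and 80510.0 CPM in control and 29381, 27496 and 28788 with arsenite (-1.40 ± 0.12, adjusted p = 7.6e-10). It took 6.28 to 6.57% of the protein-coding counts of a control library and 2.41 to 2.61% with arsenite, and the parental arsenite library held 2043 CPM. TPT1, translationally controlled tumor protein, fell from 1362, 1936 and 1329 to 679, 689 and 591 CPM (-1.25 ± 0.17). EEF2, the translocation factor, starts with the same kind of pyrimidine run as the ribosomal protein mRNAs above but had 6767, 5669.5 and 6873 CPM in control and 6574, 6104 and 6452 with arsenite (-0.03 ± 0.10, adjusted p = 0.837), and the groups overlapped. Of 32 tested initiation factors 13 were higher (40.6%, against 35.4% of all tested genes), 8 lower (25.0%, against 31.8%) and 11 not called, shares near those of all genes, and with parental-level factors 8 were higher and 12 lower. EIF3B, a scaffold of eIF3, rose from 83.5, 70.6 and 47.5 to 213, 212 and 221 CPM (1.66 ± 0.15), and EIF4G1, the scaffold of the cap complex, from 189, 159 and 201 to 421, 437 and 464 (1.26 ± 0.14). EIF4E, the cap-binding protein, fell from 136, 156 and 156 to 66.4, 58 and 61.9 CPM (-1.27 ± 0.10), and EIF4EBP2, its inhibitor, from 511, 482 and 510.1 to 206, 205 and 186 (-1.34 ± 0.10).

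The 13 mRNAs made in mitochondria, all tested, had a median of 0.15. Of these 3 rose (23.1%, against 35.4% of all tested genes), 2 fell (15.4%, against 31.8%) and 8 were not called. With parental-level factors 0 rose and 3 fell. MT-CO1, a subunit of cytochrome c oxidase, had 37803, 40953 and 49983 CPM in control and 46499, 52723 and 47504 with arsenite, and these overlapped (0.18 ± 0.16, adjusted p = 0.343). MT-ND4, of complex I, rose from 27316, 32359 and 45542 to 47079, 59435 and 56909 CPM (0.62 ± 0.23, adjusted p = 0.0194), a call lost without control replicate 1 (0.48) or 2 (0.57) and without arsenite replicate 2 (0.56) or 3 (0.595). MT-ND1, of the same complex, fell by 0.75 on the log2 scale. All 13 were above the parental arsenite library and 12 of them at least 4-fold. Nuclear-encoded respiratory chain subunits had 14 of 62 higher and 14 lower (22.6% each way, against 35.4% and 31.8% of all tested genes), with a median of -0.01, but 9 higher and 26 lower with parental-level factors. ATP5F1B, the catalytic subunit of ATP synthase, rose from 252, 279 and 217 to 941, 999 and 910.2 CPM (1.92 ± 0.16), and ATP5PF, a small subunit of its stalk, fell from 106, 79.3 and 85.5 to 37.4, 31.9 and 36.7 (-1.37 ± 0.13). Proteasome subunits rose in 18 of 29 tested genes (62.1%, against 35.4% of all tested genes) and fell in 1 (3.45%, against 31.8%). Their median was 0.64. They were led by PSMD1, a scaffold of the regulatory particle, which went from 44.9, 54.2 and 49.9 to 129, 138 and 151 CPM (1.48 ± 0.11).

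Reported clients of IGF2BP1 and oncofetal mRNAs went both ways. Of 30 listed 24 were tested, 8 rose (33.3%, against 35.4% of all tested genes), 11 fell (45.8%, against 31.8%) and 5 were not called, with a median of -0.18. CTNNB1, which encodes β-catenin, rose from 67.2, 66.6 and 55.6 to 242, 267 and 259 CPM (2.01 ± 0.12), and ACTB, β-actin, from 723, 722 and 644 to 1885, 1911 and 1792 (1.41 ± 0.15, adjusted p = 2.8e-08). PEG10, an imprinted gene derived from a retroelement, rose from 10.6, 16.8 and 14.7 to 59.3, 50.6 and 59.8 CPM (2.01 ± 0.24). The chromatin proteins HMGA1 and HMGA2 fell. HMGA1 had 45318, 42477 and 36031 CPM in control and 27459, 25923 and 25929 with arsenite (-0.65 ± 0.11), and HMGA2 had 2861, 2776 and 3398 and 1671, 1433 and 1610.3 (-0.95 ± 0.12, adjusted p = 2.5e-07). CDK6, a kinase of the G1 phase, fell from 152, 144 and 199 to 60.6, 57.3 and 60.9 CPM (-1.48 ± 0.14), and SRF, the factor that binds the CArG boxes above, from 248, 194 and 243 to 83.9, 90.8 and 92.4 (-1.37 ± 0.11). MYC had 558, 574 and 565 CPM in control and 433, 481 and 471 with arsenite, with no overlap (-0.30 ± 0.09, adjusted p = 0.00574), and this call was lost with total counts (-0.26) and with all biotypes (-0.15). HMGA1, HMGA2 and PABPC1 were 15.7, 8.93 and 14 times the parental arsenite level, whereas ACTB was 0.604 times and CTNNB1 0.834 times that level. PHC3, a Polycomb protein, fell from 1165, 1394 and 1335 to 556, 569.7 and 577 CPM (-1.20 ± 0.09) and stayed at 7.72 times the parental arsenite level.

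Messenger RNAs of stress granule proteins had a median of 0.61. Of 30 tested genes 20 rose (66.7%, against 35.4% of all tested genes) and 4 fell (13.3%, against 31.8%). UBAP2L, a granule organizer, rose from 401, 355 and 405 to 1384, 1174 and 1428 CPM (1.77 ± 0.14) and ATXN2L, a relative of ataxin-2, from 679, 616 and 651 to 2038, 2008 and 2107 (1.65 ± 0.11), with parental arsenite levels of 193 and 198 CPM. TAF15, an RNA-binding protein, rose by 2.12 ± 0.14. NUFIP2, a partner of the granule nucleator G3BP1, fell from 268, 287 and 337 to 131, 127 and 134 CPM (-1.20 ± 0.11), and YBX1, a packaging protein of mRNA, from 241, 321 and 297 to 180.2, 197 and 191 (-0.61 ± 0.10). For proteins that write, erase or read N6-methyladenosine the shares were near those of all genes. Of 18 tested, 5 were higher and 5 lower (27.8% each way), or 3 and 10 with parental-level factors. The readers HNRNPA2B1 and YTHDC1 rose by 1.81 ± 0.15 and 1.76 ± 0.16, and RBM15B and RBM15 of the writer complex fell, by 1.03 and 0.81 on the log2 scale.

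Cyclins and cell cycle regulators had a median of 1.15. Of 37 tested genes 27 rose (73.0%, against 35.4% of all tested genes) and 3 fell (8.11%, against 31.8%). CCNA2, cyclin A2, rose from 49.4, 55.8 and 61.2 to 372, 318 and 333 CPM (2.61 ± 0.13, adjusted p = 9.2e-14), CDC20, an activator of the anaphase-promoting complex, from 142, 133 and 103 to 539.7, 535 and 492 (2.04 ± 0.13), and RB1, the retinoblastoma protein, from 30.6, 20.1 and 26.2 to 116, 90.2 and 103 (1.99 ± 0.14). The members that fell were CDK6 above and the E2F transcription factors E2F1 and E2F3, the latter from 67.9, 71.8 and 74.2 to 39.7, 44.2 and 41.8 CPM (-0.78 ± 0.10). Splicing factors of the serine/arginine and hnRNP families had a median of 0.88. Of 32 tested genes 26 rose (81.25%, against 35.4% of all tested genes) and 1 fell (3.1%, against 31.8%). HNRNPM had 18.8, 13.6 and 15.5 CPM in control and 52.2, 54.1 and 71.8 with arsenite (1.87 ± 0.16) and PTBP1 had 210.4, 206 and 205 and 593, 623 and 596 (1.53 ± 0.08). For 26 of the 32 the wild-type arsenite level was below the parental one. Large chromatin regulators went the other way, with a median of -0.41. Of 33 tested genes 17 fell (51.5%, against 31.8% of all tested genes) and 8 rose (24.2%, against 35.4%). TET3, a 5-methylcytosine oxidase, fell from 332, 306 and 327 to 93.4, 96.9 and 103 CPM (-1.73 ± 0.12), CHD7, a nucleosome remodeler, from 366, 370.1 and 369.7 to 130.0, 123 and 130.4 (-1.54 ± 0.11), and BPTF, of the NURF remodeler, from 1257, 1460.3 and 1342 to 550.0, 599.9 and 554 (-1.26 ± 0.10).

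In the WNT pathway 11 of 23 tested genes fell (47.8%, against 31.8% of all tested genes) and 7 rose (30.4%, against 35.4%). DKK1, a secreted inhibitor, fell from 163, 208 and 135 to 49.1, 52.3 and 45.6 CPM (-1.79 ± 0.16), FZD5, a receptor, from 101, 89.2 and 111 to 43.8, 36.9 and 45 (-1.27 ± 0.20), and TCF7L2, the transcription factor of the pathway in colon, from 520.0, 540.1 and 555 to 358, 327 and 340.2 (-0.67 ± 0.09), whereas CTNNB1 and DVL2, a cytoplasmic mediator, rose. Genes of cholesterol synthesis and uptake had a median of 0.79. Of 21 tested 13 rose (61.9%, against 35.4% of all tested genes) and 1 fell (4.76%, against 31.8%). TM7SF2, a sterol reductase, went from 70.04, 54 and 57.4 to 448, 391 and 370.4 CPM (2.72 ± 0.13) and SREBF1, a transcription factor of lipid synthesis, from 116, 122 and 85.4 to 353, 371 and 349 (1.72 ± 0.13). Among p53 targets 6 of 23 rose (26.1%) and 9 fell (39.1%), against 35.4% and 31.8% of all tested genes. MDM2, the ubiquitin ligase of p53, fell from 268, 317 and 330.1 to 96.6, 104 and 101 CPM (-1.61 ± 0.11), ZMAT3, an RNA-binding target, fell by 1.78 on the log2 scale, and SESN2, a sestrin, rose from 19.7, 16.8 and 15.2 to 64.6, 70.1 and 73 (1.99 ± 0.14). Integrins rose in 6 of 9 tested genes (66.7%, against 35.4% of all tested genes). They were led by ITGB4, which went from 294, 262 and 286 to 964, 913 and 1014 CPM (1.77 ± 0.10). Replication-dependent histone mRNAs rose in none of 34 tested genes and fell in 14 (41.2%, against 31.8% of all tested genes). With parental-level factors 22 fell. Their summed level was 3121, 3711 and 1988 CPM in control and 2251, 2376 and 2286 with arsenite, and the groups overlapped because control replicate 3 was the lowest of the 6 libraries.

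Large changes were also seen in genes that are not on the stress gene lists. POLR2A, the largest subunit of RNA polymerase II, had 394, 337 and 446 CPM in control and 3495, 3504 and 4046 with arsenite (3.22 ± 0.17, adjusted p = 2.0e-13), and the parental arsenite library held 598. TFG, a protein of secretory transport, rose from 153, 132 and 133 to 1194, 1136 and 1144 CPM (3.04 ± 0.11) against 69 in the parental arsenite library. TECPR2, an autophagy protein, rose from 21.8, 18.2 and 17.5 to 137, 158 and 151 CPM (2.94 ± 0.13) against 11.2. The CPM of these 3 mRNAs were thus 6.16, 16.8 and 13.3 times those in the parental arsenite library. CCNL1, a cyclin of splicing kinases, rose from 20.1, 22 and 23.4 to 183, 177 and 191 CPM (3.07 ± 0.10), which was 0.977 times the parental level. NFKBIZ, a nuclear regulator of NF-κB, rose from 6.06, 5.51 and 12.7 to 62.1, 54.4 and 75.9 CPM (3.00 ± 0.26).

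Among the decreases, ANKRD33B, an ankyrin repeat protein, had 247, 193 and 294 CPM in control and 18.1, 19.3 and 19.8 with arsenite (-3.69 ± 0.18, adjusted p = 9.4e-14). POMK, a kinase that modifies dystroglycan, fell from 664, 546 and 761 to 95.5, 93.8 and 101 CPM (-2.78 ± 0.17), and PARD6B, a cell polarity protein, from 245, 251 and 274 to 38.8, 40.5 and 38.1 (-2.72 ± 0.11). KRT80, an epithelial keratin, fell from 74.8, 62.8 and 71.1 to 9.23, 10.1 and 8.48 CPM (-2.92 ± 0.17). Secreted factors were among them. CLCF1, a cytokine, went from 122, 129 and 117 to 18.6, 13 and 12 CPM (-3.08 ± 0.16), PDGFB, a growth factor, from 120.4, 115 and 112 to 18.1, 21.4 and 16.3 (-2.66 ± 0.10), and WNT9A, a WNT ligand, from 33.6, 32.5 and 35.2 to 5.50, 5.01 and 6.81 (-2.56 ± 0.19). LSM3, a subunit of the LSM ring that binds U6 RNA and decaying mRNA, fell by 2.60 on the log2 scale, and ARHGDIB, an inhibitor of small GTPases at a low level, by 3.36 ± 0.32. Separate groups were a condition for naming these genes, so their lack of overlap adds no support.

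The change with arsenite was related to the make-up of the annotated transcript, a comparison made after the values were seen. Lengths were taken from the Ensembl canonical transcript of each gene in GENCODE 44. In the 690 genes with under 500 coding bases the median log2 change was -0.76 and 69.6% fell, and in the 2152 genes with 2000 to 4000 coding bases it was 0.41 and 51.6% rose. The 3′ UTR went the other way. Genes with under 500 bases of 3′ UTR had a median of 0.24 (1733 genes) and genes with at least 4000 bases had -0.41 (1369 genes, of which 53.2% fell). Ordered by the ratio of coding length to 3′ UTR length, the median rose through all 6 classes, from -0.69 at a ratio under 0.25 (1006 genes, 71.1% lower and 7.75% higher) to 0.53 at a ratio of 4 or more (1448 genes, 54.8% higher and 15.7% lower). Spearman's rho across the 8734 genes was 0.41 for this ratio, 0.361 for coding length, -0.255 for 3′ UTR length, 0.119 for G+C percent and -0.0555 for summed exon length. These are descriptions across genes, which share libraries and are not independent replicates. The order over the 6 classes was the same without the ribosomal protein and respiratory chain genes, where the medians ran from -0.69 to 0.56. Among genes with 1000 to 2000 coding bases, medians fell from 0.56 for a 3′ UTR under 500 bases to -0.40 for one of at least 4000 bases.

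The summed level of each class was set beside that in the 2 parental libraries. For a ratio under 0.25 the log2 ratio of summed CPM, arsenite over control and without PABPC1, was -0.675 in wild-type and 0.311 in the parental pair, for a ratio of 2 to 4 it was 0.328 and 0.574, and for a ratio of 4 or more, the last class, it was lower again, at 0.241 and 0.499. By 3′ UTR length, from under 500 to at least 4000 bases, it was 0.116, 0.298, 0.0374, -0.0977 and -0.286 in wild-type. In the parental pair it was 0.374, 0.548, 0.484, 0.428 and 0.511 in the same classes. It thus fell over the middle classes in both, but in the parental pair it was higher again in the last. By coding length it ran from -0.715 to 0.393 in wild-type, peaking at 2000 to 4000 bases, and from 0.0512 to 0.803 in the parental pair, rising with each class. The parental pair is 1 library for each treatment, its control library is shallow, and its values share an offset from the scaling, so only the order of the classes can be read. In the mutant cells, whose libraries are independent of the wild-type ones, rho for the ratio was 0.475 for S181E, 0.483 for Y396E and 0.474 for RQ.

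Transcripts enriched in the pull-down were defined from libraries other than the wild-type ones. Their mean levels in the mutant control libraries and in the mutant arsenite libraries both had to be at least 4-fold over the parental arsenite library. That background was taken after arsenite, so an RNA that rises in the cell with arsenite passes less easily in the control libraries. The choice can thus by itself lower the share of rising genes in the set, and the values below are a description. These 483 genes had a median log2 change of -0.18 against 0.05 in the other tested genes. Of them 23.6% rose and 41.0% fell, against 36.1% and 31.3% of the others. At 2-fold the set held 1597 genes with a median of -0.20 against 0.105, and at 8-fold 155 genes with -0.26 against 0.04. Under TMM, total counts or parental-level factors the difference from the other genes was -0.305 to -0.308 at 2-fold, -0.225 to -0.226 at 4-fold and -0.293 to -0.301 at 8-fold. Among the genes at least 2-fold higher with arsenite, 141 of 1276 (11.1%) were at least 4-fold over the parental arsenite library in wild-type cells and 556 (43.6%) below it, and among those at least 2-fold lower these were 73 of 942 (7.75%) and 374 (39.7%).

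The response of wild-type IGF2BP1 was then compared with that of its mutants, S181E and Y396E, which carry a negative charge at a phosphorylation site of a linker, and RQ, in which arginines of a linker were replaced by glutamine. The difference of the 2 responses passed the test for 34 genes with S181E (0.389% of those tested), 249 with Y396E (2.85%) and 6 with RQ (0.0687%). Of these, 24, 210 and 1 responded lower than in wild-type and 10, 39 and 5 higher. At an unadjusted p under 0.05 there were 1128, 1569 and 844. These counts rest on single libraries. For S181E they ranged from 0 to 18 higher and 1 to 69 lower when any 1 of the 12 libraries was left out, with 0 and 1 without wild-type arsenite replicate 1 and 18 and 69 without wild-type control replicate 1. For Y396E they ranged from 17 to 74 and from 78 to 320, with 17 and 78 without wild-type arsenite replicate 1 and 74 and 320 without wild-type control replicate 3. For RQ they ranged from 0 to 13 and from 0 to 19, with 13 and 19 without wild-type control replicate 2 and 0 and 0 without RQ arsenite replicate 2. The signs of the wild-type and mutant responses were the same for 7815 genes with S181E, 7633 with Y396E and 7872 with RQ, and Pearson's r across genes was 0.938, 0.92 and 0.944, as a description. CCNA2 rose by 2.61 in wild-type and by 1.04 with Y396E (difference -1.58 ± 0.17, edgeR adjusted p = 1.4e-05). JUN rose by 3.09 in wild-type and by 4.15 with S181E (difference 1.06 ± 0.19, adjusted p = 0.0292), and WNT9A fell less with S181E, at -1.35 against -2.56 (difference 1.21 ± 0.26). SESN2 rose by 1.99 in wild-type and by 3.42 with RQ (difference 1.43 ± 0.20, adjusted p = 0.00153), where the arsenite group has 2 libraries. RPL41 had a log2 change of -2.37 in wild-type and -2.21, -1.83 and -2.15 with S181E, Y396E and RQ. FOS had 6.65 in wild-type and 6.46, 6.36 and 7.28 in the mutants.

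**Figure D3:**
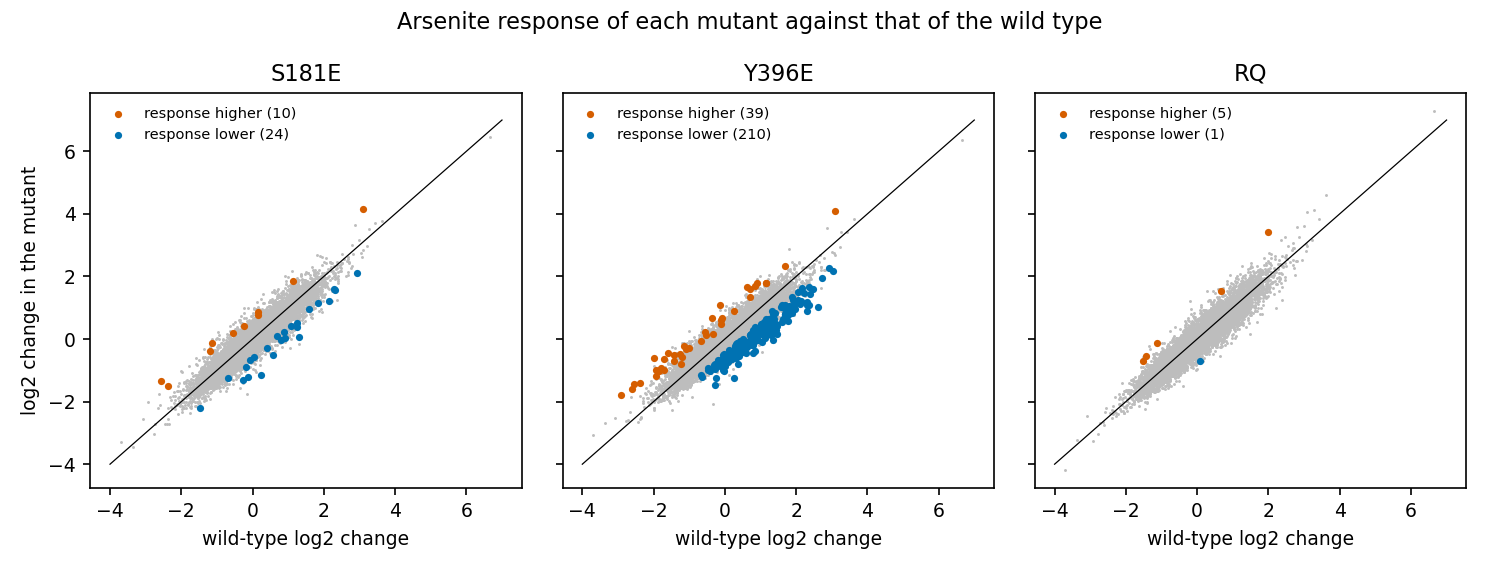
Log2 change with arsenite in wild-type cells (x axis) against that in cells with S181E, Y396E or RQ (y axis), 1 point for each of 8734 genes, with a diagonal of equal change. Colored points are the 34, 249 and 6 genes whose response differed from wild-type, and most of those for Y396E lie below the diagonal (210 lower, 39 higher).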

How the data were processed

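RIP-seq of mCherry-IGF2BP1 was analysed from counts. The authors sequenced single reads, converted them with bcl2fastq 2.20.0.422, checked them with FastQC 0.11.9, trimmed them, aligned them to hg38 with STAR 2.7.11b and counted exonic reads per gene with featureCounts (Subread 2.0.6) and GENCODE 46. Each deposited table holds the raw counts of 63086 genes. Per the file headers, featureCounts counted by strand and left out reads with more than 1 mapping place, which lowers the counts of near-identical genes. Names and biotypes came from GENCODE 44 by Ensembl identifier (62541 found, 545 not).

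Following the authors' methods, 8734 protein-coding genes were tested, those above 10 CPM in 11.5 or more of 23 mCherry libraries. Since 12 of these libraries are controls, a gene above that level in arsenite libraries alone could not pass. A model with 8 groups was fitted with edgeR 4.0.16 in R 4.3.3, and the quasi-likelihood test was applied with Benjamini-Hochberg adjustment. Calls needed an adjusted p under 0.05 together with a change of more than 20%. Printed CPM use TMM factors computed on all 25 libraries, and log2 changes are those of the model. DESeq2 1.42.0 served as an alternative, and tables were made in Python 3.11.15 with pandas 2.3.3 and scipy 1.17.1. The procedure was tested on simulated data. Named genes are the 12 most increased and 12 most decreased with separate groups, the 10 with the highest CPM, the 3 most changed in each direction and the 2 highest of each gene list, the 3 highest and 3 lowest differences of each mutant, and 14 genes of the study. EGR3, DNAJB1, HMOX1, RPS27, HSPA1A and the epithelial markers fall outside this rule, and a few genes within it are not reported here. The members and lists were chosen with earlier results of these data known, and the comparisons by transcript length and composition were added after seeing the data. Alternatives were other scaling, filters, tests, sample sets and each library left out. Replicates are dishes grown independently, and the edgeR p-values measure the spread between them, estimated over all 8 groups together. Dishes of a construct came from the same sorted population. Differences between mutant and wild-type responses thus cannot be told apart from differences between these populations. Limits set by a count of 0 (3 counts) cover counting error only, since PCR copies are not independent molecules.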

Additional observations from a re-analysis of the deposited data

Results flagged for a closer look

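In the tests of mutant against wild-type response, these genes were among those with the largest differences that passed, each as log2 change in the mutant minus log2 change in wild-type. With S181E, WNT9A differed by 1.21, JUN by 1.06 and DSP, a desmosome protein, by 1.01, and ZNF25, a zinc finger protein, by -1.39, MAP2, a microtubule protein, by -1.25 and INSIG1, a regulator of sterol synthesis, by -1.08. With Y396E, METTL3, the methyltransferase of N6-methyladenosine, differed by 1.21, KRT80 by 1.13, CCNA2 by -1.58, ZNF25 by -1.50 and AUNIP, a partner of Aurora A, by -1.39. With RQ, SESN2 differed by 1.43, DSP by 1.01, FAM193B by 0.911 and MRPS10, a mitochondrial ribosomal protein, by -0.779. DSP thus passed with 2 mutants, its level falling from 191, 280.5 and 203 CPM to 101, 101 and 107 in wild-type libraries. ZNF25 was near 10 CPM in wild-type, with 7.10, 8.70 and 13.1 in control and 11.1, 11.9 and 11.3 with arsenite. All 3 comparisons share the 6 wild-type libraries.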

How the results depend on the processing

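The wild-type counts, 3095 higher and 2780 lower, stayed within 1.5 times in every alternative run, and no called gene was called in the opposite direction in any. The log2 change of called genes changed sign for 41 genes with parental-level factors and for 1 without control replicate 3. With DESeq2's Wald test they were 2996 and 2985, with a test for a change above 20% 2650 and 2334, with filterByExpr 3743 and 3249, with all biotypes 3213 and 2145, and without 1 library 2899 to 3134 and 2641 to 2760. Under parental-level factors, which lower every log2 change alike, 8 ATF4 genes fell, 9 unfolded protein response genes rose and 5 fell, 8 initiation factors rose, 9 respiratory chain genes rose and 26 fell, 0 mitochondrially encoded mRNAs rose, 3 m6A genes rose and 10 fell, 6 cell cycle genes, 4 cholesterol genes and 22 histone genes fell, and 4 chromatin regulators and 4 WNT genes rose. The lists with 1 or 0 members lower held 2 proteasome genes, 2 splicing factors and 1 integrin under these factors and under DESeq2 size factors, and 0 proteasome genes with total counts. Medians by exon length moved to -0.424 under 2000 bases and -0.5 from 8000. Of the 4 uncalled genes named with values, EEF2 turned to 0.02 with total counts, 0.13 with all biotypes and lay between -0.112 and 0.023 without 1 library, SLC7A5 to -0.267 with parental-level factors, -0.01 with DESeq2 and between -0.009 and 0.097 without 1 library, and MT-CO1 to -0.127 with parental-level factors. Calls of DNAJC3, MT-ND4, MYC and XBP1 were lost under some alternatives, and EEF2 and IGF2BP2 were called under some. The causes were not tested.

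The mutant differences were less stable, given as higher and lower. S181E gave 1 and 2 with parental-level factors, 63 and 75 with DESeq2, 0 and 1 with the 20% test, 5 higher with filterByExpr, 4 higher with all biotypes, 0 and 0 with only the groups compared and 0 to 18 and 1 to 69 without 1 library. Y396E gave 20 higher with parental-level factors, 132 higher with DESeq2, 9 and 55 with the 20% test, 452 lower with all biotypes, 537 lower with total counts and 17 to 74 and 78 to 320 without 1 library. RQ gave 3 and 0 with parental-level factors, 23 and 24 with DESeq2, 1 and 0 with the 20% test, 3 lower with filterByExpr or no filter, 6 lower with all biotypes, 3 and 3 with total counts, 0 and 0 with only the groups compared and 0 to 13 and 0 to 19 without 1 library. Same-numbered libraries deviated together only weakly (correlations -0.0267, 0.107 and 0.141), so that the numbers were not taken as pairs. With the replicate number as a block in all mCherry libraries the wild-type counts were 3228 and 2892, S181E 63 and 207, Y396E 171 and 639 and RQ 21 and 22. With the block and only the groups compared they were 2973 and 2469 in wild-type, 9 lower for S181E, 137 and 445 for Y396E and 0 lower for RQ.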

Other observations

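Several stress genes were too low for the filter on levels but could be compared with edgeR's filterByExpr. It tested 13417 genes, of which 3743 rose and 3249 fell. Of 23 untested members of the 5 stress lists (immediate early, heat shock, NRF2, ATF4 and unfolded protein response), 6 rose, 2 fell, 6 were not called and 9 could not be fitted. Those that fell were JDP2, a repressor of AP-1, by 1.12 on the log2 scale (adjusted p = 9.5e-05), and SRXN1, sulfiredoxin, by 0.62 (adjusted p = 0.026), and ASNS, asparagine synthetase, was not called (1.39, adjusted p = 0.10). CHAC1, a glutathione-degrading enzyme of the ATF4 response, had 7.14, 4.31 and 6.05 CPM in control and 35.3, 43.6 and 46.3 with arsenite, a log2 change of 2.81 (adjusted p = 2.3e-09), against 8.91 in the parental arsenite library. DDIT3, which encodes CHOP, had 2.59, 3.03 and 0 CPM in control and 9.50, 9.07 and 14.6 with arsenite (2.49, adjusted p = 0.00034), and 79.3 in the parental arsenite library. Of the other lists' 86 untested members, 14 rose, 4 fell, 42 were not called and 26 could not be fitted. The splicing kinases CLK1 and CLK4 rose by 2.48 and 2.03, CLK1 from 10.3, 7.10 and 6.14 CPM to 43.6, 47.0 and 43.5. CDC25C, a phosphatase of mitotic entry, rose by 2.23 from 2.40, 3.19 and 1.23 CPM to 11.4, 9.79 and 11.3. IGF2, the mRNA that gave the protein family its name, had 7.80, 2.24 and 2.98 CPM in control and 11.1, 15.2 and 14.8 with arsenite (1.60, adjusted p = 0.00031). EGR4 was listed at 0 in the 3 control libraries and had 3.25, 4.62 and 1.98 CPM with arsenite. EEF1G, EIF4A1 and NDUFA7 were listed at 0 in all 6 libraries.

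By summed exon length the median log2 change was -0.13 in 1183 genes under 2000 bases, 0.20 in 2843 genes of 2000 to 4000, 0.04 in 3473 genes of 4000 to 8000 and -0.19 in 1235 genes of at least 8000 bases, of which 42.7% fell. Mitochondrially encoded mRNA took 17.4% ± 3.03 (SD, n = 3) of protein-coding counts in control and 19.7% ± 1.45 with arsenite (exact permutation test, two-sided, p = 0.3).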
